A study of Mus musculus with 9 samples.

Results

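The 42 genes described here encode Wnt ligands, their receptors and co-receptors, secreted inhibitors, feedback genes, TCF/LEF transcription factors and the β-catenin complex. They were chosen by name, each name matched 1 gene identifier, and all 42 were found among the 24186 gene identifiers of the count table. 38 of them passed the filter on low counts and were tested with 15098 genes in all, and the other 4 (Wnt3a, Wnt6, Wnt10a and Wnt16) had too few counts.

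The study sequenced poly(A) RNA from mouse bone marrow stromal cells, the adherent mesenchymal cells of the marrow that can give rise to bone-forming and fat-storing cells. The donors were adult C57Bl/6 animals with the transgene irtTA-GBD*-TAg, which switches on large T antigen when dexamethasone and doxycycline are added, so that the cells of all groups were conditionally immortalised. The protocol describes cloning of the cells, and both drugs were left out for 3 days before sampling. The 3 groups, with 3 libraries each, were untreated progenitors with adipogenic potential (replicates 4, 5 and 6), the same adipogenic progenitors after 3 days with 10 ng/ml interferon-γ (IFNγ, replicates 4, 5 and 6), and untreated progenitors with osteogenic potential (replicates 4, 5 and 6). The potential is given as labelled, and no differentiation medium is named. The labels call the replicates biological without saying whether they are separate clones, cultures or animals. Each p-value therefore rests on the spread between these libraries only.

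Wnt proteins are secreted ligands that bind Frizzled receptors together with a co-receptor. With LRP5 or LRP6 as the co-receptor, the destruction complex of Axin, APC and GSK3 is held back, β-catenin builds up, and TCF/LEF factors switch on target genes, among them the feedback inhibitors Axin2 and Nkd1, while binding to ROR or RYK receptors is linked to signalling without β-catenin. In marrow stroma the β-catenin branch is known to favour bone formation over fat formation, with Wnt10b as a ligand that does so.

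Libraries held 27440089 to 39251602 counts, and 3 counts, taken as the detection floor, corresponded to 0.0749 to 0.113 CPM. CPM is the count of a gene relative to its library's total, here after scaling by the trimmed mean of M-values. Intervals of counting error are not given, because averaged over genes the replicates differed by more than sampling noise. For members with few counts, such as Wnt2 at 2, 7 and 14 untreated counts, counting error was not compared with the replicate spread. The IFNγ-induced factor Irf1 lay at 45.7 to 64.5 CPM in the untreated and at 634 to 883 CPM in the treated adipogenic libraries. Marker lists for the labels and for other cell types were read in the same fits, as summed CPM over a list. Of 8 osteogenic markers 4 (Runx2, Sp7, Alpl and Ibsp) were higher in osteogenic than in untreated adipogenic libraries, and Bglap, Spp1, Dmp1 and Phex did not pass. The 8 summed to 637 to 2247 CPM in osteogenic and 279 to 1428 CPM in untreated adipogenic libraries, which overlap, and to 308 to 476 CPM with IFNγ. The 7 adipogenic markers summed to 74.9 to 646 CPM untreated, 87.2 to 333 CPM with IFNγ and 37.1 to 77.9 CPM in osteogenic libraries, where the last range overlaps the first. Only Lpl of these 7 passed the test, as lower in osteogenic libraries, and the defining fat-cell genes Adipoq, Plin1 and Cd36 lay below 1 CPM everywhere. The 10 stromal markers, of which Thy1 and Lepr lay below 1 CPM everywhere, summed to 12789 to 21727 CPM untreated, 6771 to 7621 CPM with IFNγ (4 of 10 lower by the test) and 51908 to 74240 CPM in osteogenic libraries (2 of 10 higher). For the 7 smooth muscle and pericyte markers the sum was 2019 to 4379 CPM untreated, 927 to 1495 CPM with IFNγ (3 of 7 lower) and 6393 to 17236 CPM in osteogenic libraries (0 of 7 past the test). The 6 endothelial markers summed to 9.22 to 17.8, 22.2 to 54.4 and 1.67 to 2.63 CPM in the same order. Nearly all of this was Kdr, which was higher with IFNγ and lower in osteogenic libraries, while the other 5 lay below 1 CPM in every library. The 5 cartilage markers summed to 35.9 to 217, 53.5 to 84 and 228 to 288 CPM, with Sox9 higher and Col2a1 lower with IFNγ. The 7 haematopoietic markers summed to 5.29 to 19.3, 6.63 to 12.5 and 4.32 to 5.12 CPM, 6 of them below 1 CPM in every library and none past the test. Of all genes tested, 6.53% were higher and 4.27% lower with IFNγ, and 1.98% were higher and 3.19% lower in osteogenic libraries. The part of the marker differences in the Wnt results was not tested.

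After IFNγ, the Wnt genes of the adipogenic progenitors fell more often than they rose. Tcf7l1, Tcf7 and Lef1 (3 of the 4 TCF/LEF factors), the secreted inhibitor Wif1, the feedback gene Nkd1, the receptor Fzd2 and the co-receptor Lrp4 fell, and the ligand Wnt2 rose. The test was edgeR's quasi-likelihood test with each treated library set against the untreated library of the same number. Its fit held all 9 libraries, so the spread between the osteogenic libraries also entered these p-values. Adjusted p-values at or below 0.05 (Benjamini-Hochberg over all genes tested) counted as passing. The test called 7 of 38 members lower, against 4.27% of all genes, and 1 of 38 higher, against 6.53% of all genes. Both directions together made 8 members, against 10.8% of all genes. The median log2 fold change over the 38 members was −0.34, beside −0.02 over all genes tested, and 31 of 38 members (81.6%) had a negative value, beside 52.8% of all genes. Within the numbered pairs 19 members were lower in 3 of 3, which 29.7% of all genes were, and 4 were higher in 3 of 3, which 26.9% of all genes were. The values of 6 members lay lower with no overlap between the groups, which 7.17% of all genes did, and 0 lay higher, which 10.2% did. At an unadjusted p under 0.05, 15 members were lower and 3 higher, as were 13.4% and 14% of all genes.

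How many members passed depended on the pairing. Without pairing by number, edgeR called 2 members (2.26% of all genes in either direction), 2 lower (0.245% of all genes) and 0 higher (2.01% of all genes). At an unadjusted p under 0.05 that fit had 6 members lower and 1 higher, beside 5.35% and 8.95% of all genes. None of the 8 calls held in all 11 alternative fits, and each was lost in at least 2 of the 3 fits that left out a pair. All 8 kept their direction in all 11, which adds little, since each had moved the same way in 3 of 3 pairs. In bulk RNA, fewer cells that express a gene and less of its RNA per cell cannot be told apart.

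**Figure D1:**
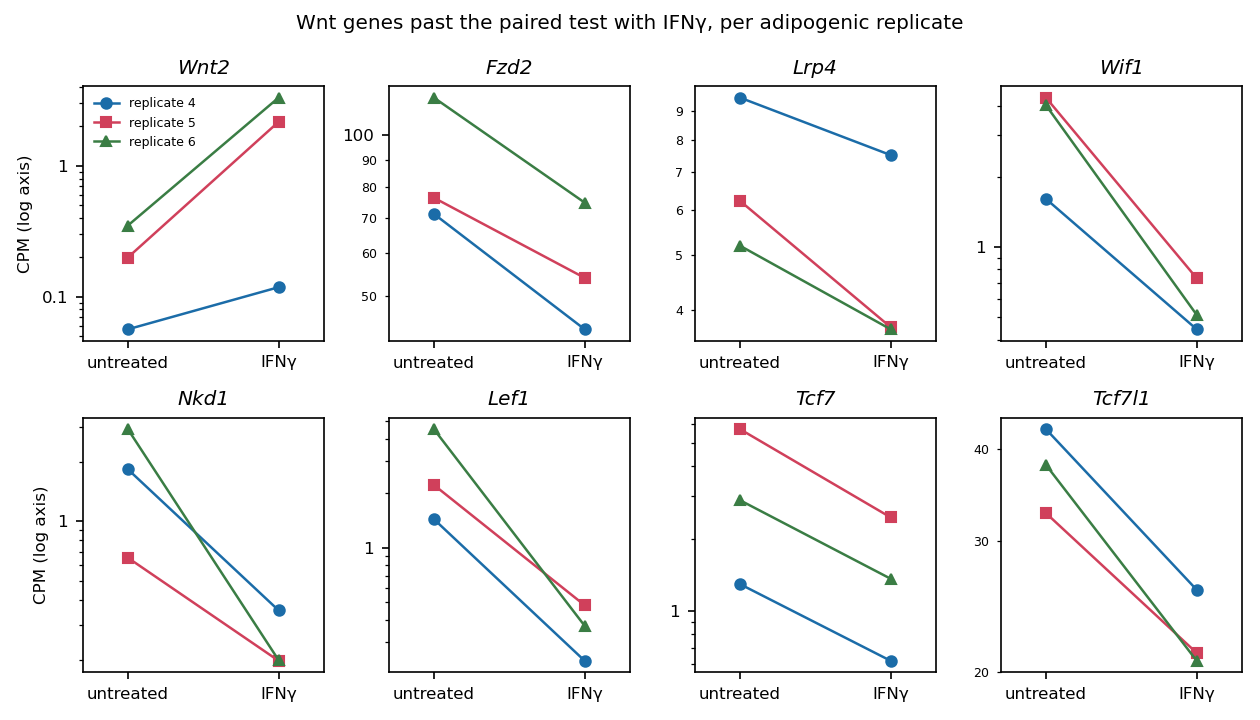
Level in CPM on a log axis of the 8 members that passed the test with IFNγ, in untreated and treated adipogenic libraries, with lines joining libraries of the same number. The lines fall in all 3 pairs for Tcf7l1, Tcf7, Lef1, Wif1, Nkd1, Fzd2 and Lrp4 and climb in all 3 for Wnt2.

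The TCF/LEF factors bind DNA and carry the signal of β-catenin, or repress their targets when it is absent. Tcf7l1 (ENSMUSG00000055799), a member of this family known mainly as a repressor, read 42.5, 32.8 and 38.1 CPM in untreated replicates 4, 5 and 6 and 25.8, 21.2 and 20.7 CPM after IFNγ. All treated values lay below all untreated values. Its mean went from 37.8 ± 4.89 to 22.6 ± 2.81 CPM (SD, n = 3 each), a log2 fold change of −0.74 ± 0.10 (SE) with edgeR adjusted p = 0.00783. This call also held without pairing, and it was lost without replicate 4 (adjusted p = 0.0596) and without replicate 6 (adjusted p = 0.0727), the largest of its 11 alternatives, the smallest being 1.74e-07. Tcf7 (ENSMUSG00000000782), which encodes TCF1, read 1.3, 5.72 and 2.89 CPM untreated and 0.621, 2.45 and 1.36 CPM treated. The groups overlapped, but the treated library held 0.479, 0.429 and 0.471 of the level of its untreated partner. The log2 fold change was −1.13 ± 0.16 (SE, edgeR adjusted p = 0.00848). Its call was lost without pairing (adjusted p = 0.446), with a block of replicate numbers over all 9 libraries (0.228), without replicate 5 (0.0672) and without replicate 6 (0.0624), within alternatives that ranged from 4.11e-05 to 0.446.

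Lef1 (ENSMUSG00000027985), at once a TCF/LEF factor and a known target of the pathway, had the lowest length-scaled level of the 4 in all 6 adipogenic libraries. It read 1.44, 2.22 and 4.52 CPM untreated and 0.236, 0.479 and 0.369 CPM with IFNγ, from 310 counts in all untreated and 38 in all treated libraries. The groups did not overlap. Lef1 was 7.01-fold lower with IFNγ (log2 fold change −2.81 ± 0.58 SE, edgeR adjusted p = 0.0308). This call was lost without pairing (adjusted p = 0.0575), with a block of replicate numbers over all 9 libraries (0.081), in limma-voom (0.142), and without replicate 4 (0.132), replicate 5 (0.0971) or replicate 6 (0.167), in a range of 7.19e-06 to 0.167. Tcf7l2, which encodes TCF4, ranged from 46 to 70.1 CPM untreated and from 36.4 to 56.7 CPM treated, was lower in 3 of 3 pairs, and did not pass (log2 fold change −0.26 ± 0.11 SE, edgeR adjusted p = 0.171).

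The upstream sequences of Lef1 and of the co-receptor gene Ror2 are shown because these genes were called higher in the osteogenic cells, as given further on, and both windows hold the core of the TCF/LEF motif, drawn in capitals (CTTTG on this strand, CAAAG on the other). They are the 250 bases before a RefSeq transcript start of the build GRCm38.p6, at chr3:131110047-131110296 on the plus strand for Lef1, the first of its 4 listed starts, and at chr13:53286125-53286374 on the minus strand for Ror2. The annotation places an exon of the gene model Gm43352 within the Lef1 window and no exon within the Ror2 window.
Lef1: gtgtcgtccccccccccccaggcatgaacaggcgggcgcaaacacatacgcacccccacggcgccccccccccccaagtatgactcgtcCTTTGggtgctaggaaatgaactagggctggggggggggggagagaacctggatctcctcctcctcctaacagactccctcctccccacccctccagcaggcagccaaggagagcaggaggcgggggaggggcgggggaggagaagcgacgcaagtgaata
Ror2: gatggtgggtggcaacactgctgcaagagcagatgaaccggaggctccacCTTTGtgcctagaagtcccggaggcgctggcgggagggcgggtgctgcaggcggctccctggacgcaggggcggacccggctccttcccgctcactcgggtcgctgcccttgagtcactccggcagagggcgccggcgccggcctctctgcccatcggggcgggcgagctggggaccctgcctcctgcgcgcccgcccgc
The core stands 161 bases before the start of Lef1 and 200 bases before that of Ror2. It is a short motif, present in 48.6% of all 32851 promoter windows of this length and in 17 of the 38 windows of the 29 members that matched the promoter table. The longer TCF/LEF motif ATCAAAG, searched on both strands, which contains the core, was in windows of 2 members, Wnt5b and Wnt11, and in 3.21% of all windows. Of the interferon motifs, the interferon-stimulated response element (TTTC and again TTTC after 2 further bases, on either strand) was in 0 of the 38 windows and in 2.98% of all, and the γ-activated site TTCNNNGAA (its own reverse complement) was in 1, of Wnt5b, and in 7.02% of all. Both printed windows were picked because they hold the core, so its presence in them is not a result. Lrp4, which was also called higher in the osteogenic cells, had no window among those of the 29 members. A match describes the letters of these windows and not a bound site.

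The feedback genes are transcribed in response to the pathway and dampen it. Nkd1 (ENSMUSG00000031661), which encodes an inhibitor that binds Dishevelled, read 1.83, 0.655 and 2.92 CPM untreated and 0.355, 0.197 and 0.199 CPM with IFNγ. Every treated value lay below every untreated one, with 205 counts in the untreated and 26 in the treated libraries. Nkd1 was 6.35-fold lower (log2 fold change −2.67 ± 0.56 SE, edgeR adjusted p = 0.0306). The call was lost without pairing (adjusted p = 0.0701) and without replicate 4 (0.134), 5 (0.0782) or 6 (0.153), and its alternatives ranged from 0.000498 to 0.153.

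Axin2 (ENSMUSG00000000142), a scaffold of the destruction complex and the most widely used readout of β-catenin signalling, behaved differently in each pair. It read 0.789, 12.6 and 2.12 CPM untreated and 1.09, 5.19 and 4.66 CPM with IFNγ. The treated library held 1.39, 0.412 and 2.2 times the level of its partner in replicates 4, 5 and 6, so that Axin2 was higher in 2 pairs and lower in 1, and the groups overlapped. Its log2 fold change was 0.08 ± 0.56 (SE, edgeR adjusted p = 0.952). Nkd2, the paralogue of Nkd1, read 6.82, 5.32 and 44.5 CPM untreated and 2.19, 5.72 and 20.9 CPM treated. It was lower in 2 of 3 pairs and did not pass (log2 fold change −0.87 ± 0.39 SE, edgeR adjusted p = 0.205).

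Among the 6 secreted inhibitors, most of which are known to bind Wnt ligands or co-receptors outside the cell, 1 fell and none of the others passed. Wif1 (ENSMUSG00000020218), which binds Wnt ligands directly, read 1.61, 4.35 and 4.04 CPM untreated and 0.443, 0.733 and 0.511 CPM with IFNγ. The groups did not overlap, and the counts behind them were 372 and 59. Wif1 was 5.58-fold lower (log2 fold change −2.48 ± 0.35 SE, edgeR adjusted p = 0.00866). The call also held without pairing. It was lost without replicate 5 (adjusted p = 0.0627) and without replicate 6 (0.0629), the largest of its alternatives, which began at 1.57e-07.

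Sfrp1, a Frizzled-related decoy for Wnt ligands, showed a large difference that did not pass. It read 46.8, 12.8 and 404 CPM untreated and 194, 147 and 1006 CPM with IFNγ. Every pair was higher with IFNγ, by 4.14-, 11.4- and 2.49-fold, although the groups overlapped because replicate 6 was far above the others in both. The log2 fold change was 2.27 ± 0.79 (SE, edgeR adjusted p = 0.124). Sfrp1 passed in limma-voom (adjusted p = 0.0455) and in the fit of the 6 adipogenic libraries alone (0.032). The other inhibitors, Sfrp2, Sfrp4, Dkk2 and Dkk3, had log2 fold changes from −1.09 (Sfrp4, edgeR adjusted p = 0.153) to −0.02 (Dkk3, edgeR adjusted p = 0.958).

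The Frizzled genes encode the receptors that bind the ligands. Of 7 measured, 1 fell. Fzd2 (ENSMUSG00000050288) read 71.2, 76.3 and 118 CPM untreated and 43.2, 54 and 74.7 CPM treated. Each treated library lay below its partner, while treated replicate 6 overlapped the untreated range. The log2 fold change was −0.63 ± 0.13 (SE, edgeR adjusted p = 0.0313). The call was lost without pairing (adjusted p = 0.326), with a block of replicate numbers over all 9 libraries (0.0884) and without replicate 4 (0.169), 5 (0.105) or 6 (0.161), in a range of 0.000824 to 0.326. Fzd1 read 57.4, 67.1 and 67.4 CPM untreated and 46.8, 28.8 and 25.4 CPM treated, and Fzd8 read 26.3, 26.9 and 36.7 CPM and 17.8, 18 and 24.2 CPM. In both genes the treated values lay below the untreated ones without overlap, and neither passed (log2 fold change −0.97 ± 0.29 SE, edgeR adjusted p = 0.0863 for Fzd1, and −0.58 with adjusted p = 0.154 for Fzd8). In the fit of the 6 adipogenic libraries alone the adjusted p was 0.0461 for Fzd1 and 0.0145 for Fzd8, and DESeq2 gave 0.00591 for Fzd1. Fzd7 went the other way in all 3 pairs, from 48.7, 42.5 and 81.8 to 70.7, 69.3 and 100 CPM (log2 fold change 0.51 ± 0.13 SE, edgeR adjusted p = 0.059), and it passed in the fit of the 6 adipogenic libraries (0.0343) and in DESeq2 (0.0157). Fzd4, Fzd5 and Fzd6 did not pass either, apart from Fzd6 in DESeq2 (adjusted p = 0.0439), and the median log2 fold change of the 7 receptors was −0.57.

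Of the 6 co-receptor genes 1 fell by a small amount. Lrp4 (ENSMUSG00000027253), which encodes a receptor of the LDL family that binds sclerostin and Dkk1, read 9.49, 6.23 and 5.19 CPM untreated and 7.51, 3.72 and 3.69 CPM with IFNγ. All pairs were lower and the groups overlapped (log2 fold change −0.52 ± 0.12 SE, edgeR adjusted p = 0.0403). The call was lost without pairing (adjusted p = 0.578), with a block of replicate numbers over all 9 libraries (0.29), in limma-voom (0.102), in the fit of the 6 adipogenic libraries alone (0.0745) and without replicate 4 (0.0925), 5 (0.179) or 6 (0.155), in a range of 0.0108 to 0.578. Lrp6, one of the main co-receptors of the β-catenin branch, ranged from 132 to 187 CPM untreated and from 84.7 to 166 CPM treated (log2 fold change −0.41, edgeR adjusted p = 0.0994, with 0.0307 in DESeq2). Its partner Lrp5 had a log2 fold change of −0.19 (edgeR adjusted p = 0.343). The receptors of the other branch did not pass: Ror2 had −0.21 (edgeR adjusted p = 0.437), Ror1 had −1.30 (adjusted p = 0.21) and Ryk had an adjusted p of 0.911.

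Among the ligands 1 of 9 tested rose. Wnt2 (ENSMUSG00000010797), a ligand of the β-catenin branch, read 0.0563, 0.199 and 0.349 CPM untreated and 0.118, 2.17 and 3.32 CPM with IFNγ. Treated replicates 5 and 6 stood far above every untreated library, whereas treated replicate 4 lay within the untreated range, and untreated replicate 4 was below the detection floor. The counts were 23 over the untreated and 198 over the treated libraries. The log2 fold change was 2.98 ± 0.58 (SE, edgeR adjusted p = 0.0252), with 3 of 3 pairs higher. The pair of replicate 4 rested on 2 counts untreated and 4 treated. The call was lost without pairing (adjusted p = 0.218), with a block of replicate numbers over all 9 libraries (0.0956) and without replicate 5 (0.158) or 6 (0.196), in a range of 0.00265 to 0.218.

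The other ligands did not pass. Wnt9a came nearest, at 6.96, 45.5 and 6.81 CPM untreated and 1.98, 14.8 and 4.66 CPM treated. It was lower in all 3 pairs with overlapping groups (log2 fold change −1.32 ± 0.34 SE, edgeR adjusted p = 0.0569), and it passed in DESeq2 (0.00132), in limma-voom (0.0455) and in the fit of the 6 adipogenic libraries alone (0.0347). Wnt10b (ENSMUSG00000022996), the ligand known to favour bone over fat, read 21.5, 52.9 and 58.5 CPM untreated and 19.7, 50 and 57.4 CPM treated. Each pair differed little, and the log2 fold change was −0.08 ± 0.13 (SE, edgeR adjusted p = 0.752). Wnt5a, the best known ligand outside the β-catenin branch, read 37.4, 54.5 and 33.1 CPM and 32.7, 37.5 and 37.4 CPM (log2 fold change −0.19, edgeR adjusted p = 0.727). Wnt2b, Wnt4, Wnt5b, Wnt7b and Wnt11 had log2 fold changes between −1.88 (Wnt11, edgeR adjusted p = 0.191) and 0.51 (Wnt2b, adjusted p = 0.744). The members below the filter were close to or at 0. Over the untreated, treated and osteogenic libraries, Wnt3a had 1, 0 and 1 counts, Wnt6 had 8, 5 and 11, Wnt10a had 7, 1 and 6, and Wnt16 had 23, 0 and 40.

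The 3 core genes had a median log2 fold change of −0.04, and none passed or had an unadjusted p under 0.05 (0 of 3). β-catenin (Ctnnb1) ranged from 743 to 834 CPM untreated and from 721 to 821 CPM treated, with a log2 fold change of −0.04 (edgeR adjusted p = 0.881). Apc and Gsk3b, which take part in its destruction, had log2 fold changes of 0.05 (edgeR adjusted p = 0.799) and −0.15 (adjusted p = 0.52). Only RNA was measured, so these values say nothing of β-catenin protein.

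**Figure D2:**
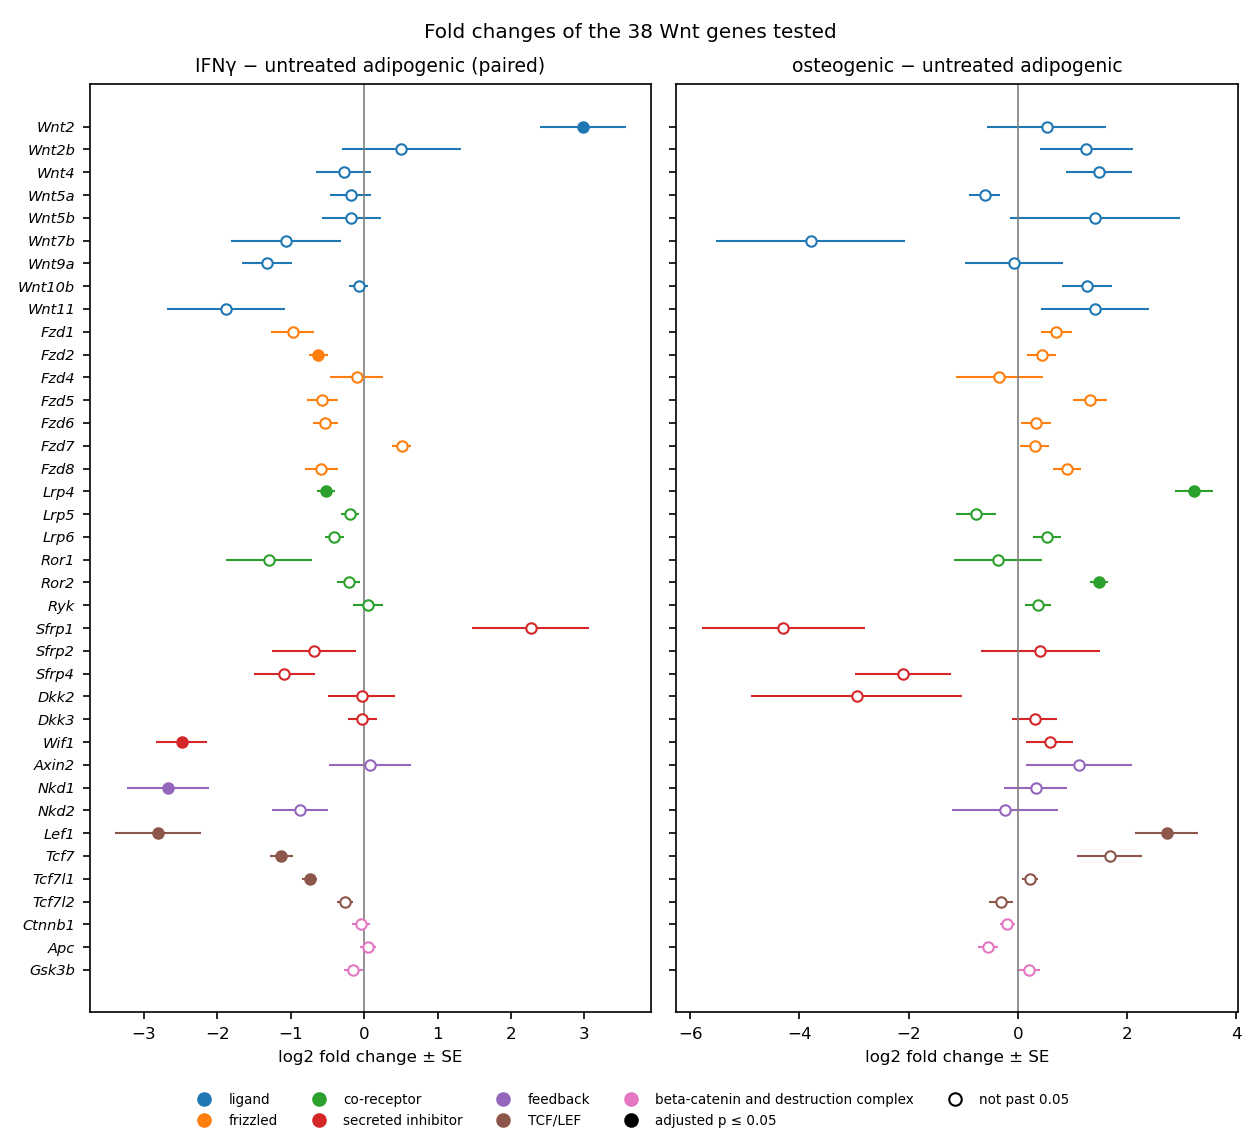
Log2 fold change (x axis) of each of the 38 tested members, coloured by role, with its standard error as a bar, for IFNγ against untreated adipogenic libraries (left) and osteogenic against untreated adipogenic libraries (right), with filled points past an adjusted p of 0.05. On the left 31 points lie below 0, and on the right the filled points are Lrp4, Ror2 and Lef1, all above 0.

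Genes of the wider pathway were read from a list of 103 names, of which 99 were in the table and 84 were tested. With IFNγ 10 of these 84 fell and 3 rose, against 4.27% and 6.53% of all genes, and their median log2 fold change was −0.16, beside −0.02 over all genes. Those that fell included Wls, the carrier that brings Wnt proteins to the cell surface, at 817, 792 and 649 CPM untreated and 415, 446 and 373 CPM treated. The groups did not overlap (log2 fold change −0.87 ± 0.14 SE, edgeR adjusted p = 0.0138), and the adjusted p was 0.0908, 0.0778 and 0.0856 without replicates 4, 5 and 6, in a range that began at 1.45e-07. The co-receptor Ptk7 had a log2 fold change of −1.17 ± 0.14 (SE, edgeR adjusted p = 0.0053), which was lost without replicate 6 (adjusted p = 0.053), with the block of replicate numbers (0.0771) and without pairing (0.219, the largest of its alternatives, from 1.1e-12). The β-catenin inhibitor Ctnnbip1 (log2 fold change −0.71), the Dishevelled-binding Dact3 (−0.95), the co-repressor Tle1 (−0.62) and Fgf18, a growth factor and target gene (−1.95), also fell, with edgeR adjusted p-values from 0.00989 to 0.0229. Those that rose were Dact1, a paralogue of Dact3, with a log2 fold change of 1.75 (edgeR adjusted p = 0.0296), Sox9, a transcription factor that is also on the cartilage marker list (1.00, adjusted p = 0.0266), and Wisp2, a target gene (0.95, adjusted p = 0.0293). Each of these 7 calls was lost without at least 2 of the 3 replicates and without pairing, 6 of them (all but Ctnnbip1) also with the block of replicate numbers, and that of Dact1 also with no filter (adjusted p = 0.0543). Without replicates 4, 5 and 6 in turn, the edgeR adjusted p was 0.0675, 0.0751 and 0.0728 for Ctnnbip1, 0.0547, 0.0911 and 0.0659 for Fgf18, and 0.0905, 0.136 and 0.077 for Tle1. It was 0.157, 0.14 and 0.0599 for Dact1, 0.144, 0.0775 and 0.128 for Sox9, and 0.138, 0.0949 and 0.145 for Wisp2, and for Dact3 it was 0.0939 without replicate 4 and 0.0959 without replicate 6.

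The osteogenic progenitors were then compared with the same untreated adipogenic libraries, so both comparisons share these 3 libraries. Here 3 of 38 members were higher, against 1.98% of all genes, and 0 were lower, against 3.19% of all genes. The 3 were the co-receptors Lrp4 and Ror2 and the transcription factor Lef1, and both directions together took in 5.17% of all genes. The test was edgeR's quasi-likelihood test without pairing, since osteogenic libraries did not vary with adipogenic libraries of the same number. At an unadjusted p under 0.05, 9 members were higher and 3 lower, as were 10.5% and 12.8% of all genes (23.3% in either direction). Limma-voom called 0 members lower, beside 382 of all genes, and DESeq2 called 1, Sfrp1, beside 1282 of all genes. The median log2 fold change of the members was 0.35, beside −0.02 over all genes, and 25 of 38 (65.8%) had a positive value, beside 48.6% of all genes. In 9 members all osteogenic values lay above all untreated adipogenic ones, as in 15% of all genes, and in 3 they lay below, as in 15.9% of all genes.

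Lrp4 was the member with the largest difference among those that passed. It read 9.49, 6.23 and 5.19 CPM in the untreated adipogenic and 65.6, 69.6 and 59.6 CPM in the osteogenic replicates 4, 5 and 6. The groups lay far apart, with means of 6.97 ± 2.24 and 64.9 ± 5.01 CPM (SD, n = 3 each). Lrp4 was 9.31-fold higher (log2 fold change 3.22 ± 0.35 SE, edgeR adjusted p = 0.00387). Ror2 (ENSMUSG00000021464), a receptor tyrosine kinase for Wnt5a, read 22.2, 23.9 and 17 CPM in adipogenic and 60.7, 58.2 and 58.6 CPM in osteogenic libraries. The osteogenic values were close together at 59.2 ± 1.36 CPM, all above the adipogenic mean of 21.1 ± 3.61 CPM (SD, n = 3 each), and Ror2 was 2.81-fold higher (log2 fold change 1.49 ± 0.17 SE, edgeR adjusted p = 0.00439). Both calls held in all 13 alternatives, where the largest adjusted p was 0.0197 for Lrp4 and 0.0266 for Ror2. Of the other co-receptors, Lrp6 at 236, 194 and 246 CPM lay above the adipogenic range of 132 to 187 CPM, and Lrp5 at 69.8, 90.3 and 85.5 CPM lay below the adipogenic range of 96.6 to 199 CPM, and neither passed (edgeR adjusted p = 0.244 and 0.252).

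Lef1 read 28.1, 7.6 and 18.4 CPM in the osteogenic libraries, against 1.44, 2.22 and 4.52 CPM in the untreated adipogenic ones. The groups did not overlap although the osteogenic values spread widely, with 18 ± 10.2 CPM against 2.72 ± 1.6 CPM (SD, n = 3 each). Lef1 was 6.61-fold higher (log2 fold change 2.72 ± 0.58 SE, edgeR adjusted p = 0.0384). The call was lost without adipogenic replicate 4 (adjusted p = 0.0896), 5 (0.0985) or 6 (0.0558), without osteogenic replicate 4 (0.123) or 6 (0.103), and in the fit of the 6 libraries compared (0.0695), in a range of 9.15e-05 to 0.123. Tcf7 read 10.7, 10.8 and 10.3 CPM in osteogenic libraries, the tightest of the groups and above the adipogenic range of 1.3 to 5.72 CPM. It did not pass (log2 fold change 1.68 ± 0.60 SE, edgeR adjusted p = 0.141), although it did in DESeq2 (0.0412) and with a block of replicate numbers (0.046). Tcf7l1 and Tcf7l2 differed little, with log2 fold changes of 0.22 (edgeR adjusted p = 0.402) and −0.31 (adjusted p = 0.432).

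The feedback genes did not pass in this comparison. Axin2 read 12, 5.98 and 15.6 CPM in osteogenic libraries, overlapping the untreated adipogenic group through its replicate 5 at 12.6 CPM and above its replicates 4 and 6 (log2 fold change 1.12 ± 0.97 SE, edgeR adjusted p = 0.527). Nkd1 at 2.36, 1.2 and 3.22 CPM had a log2 fold change of 0.33 (edgeR adjusted p = 0.778), and Nkd2 at 15.3, 21.9 and 11 CPM had −0.23 (adjusted p = 0.912).

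No ligand passed, and 2 of 9 were higher at an unadjusted p under 0.05 (10.5% of all genes). Wnt10b read 89, 123 and 108 CPM in osteogenic libraries, all above the adipogenic 21.5 to 58.5 CPM (log2 fold change 1.27 ± 0.46 SE, edgeR adjusted p = 0.149), and it passed with a block of replicate numbers (0.0289). Wnt4 read 11.6, 4.33 and 10.4 CPM against 1.8, 5.24 and 2.35 CPM, with osteogenic replicate 5 inside the adipogenic range (log2 fold change 1.49 ± 0.61 SE, edgeR adjusted p = 0.187). Wnt5a at 26.2, 17.7 and 38 CPM overlapped the adipogenic 33.1 to 54.5 CPM (log2 fold change −0.61, edgeR adjusted p = 0.245). Wnt16, below the filter, was listed at 1.43 CPM in osteogenic replicate 5 and at no more than 0.451 CPM in any other library.

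No Frizzled gene passed, and 3 of 7 were higher at an unadjusted p under 0.05 (10.5% of all genes). Fzd1, Fzd5 and Fzd8 lay higher in osteogenic libraries without overlap. Fzd5 read 164, 189 and 117 CPM against 42.7, 91.9 and 52.8 CPM in the untreated adipogenic libraries. It missed the threshold narrowly (log2 fold change 1.33 ± 0.31 SE, edgeR adjusted p = 0.0509) and passed without adipogenic replicate 5 (0.0231), with DESeq2 (0.00175), limma-voom (0.0444), upper-quartile scaling (0.0463) and a block of replicate numbers (0.0249). Fzd8 at 51.4, 75.9 and 40.2 CPM had a log2 fold change of 0.90 ± 0.26 (SE, edgeR adjusted p = 0.0873, with 0.0195 in DESeq2). Fzd1 at 75.1, 140 and 97.1 CPM had a log2 fold change of 0.70 (edgeR adjusted p = 0.184).

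Of the 6 secreted inhibitors 3 had a negative and 3 a positive log2 fold change, and none passed, with 2 lower at an unadjusted p under 0.05 (12.8% of all genes). Sfrp1 differed most, at 6.23, 16 and 1.52 CPM in osteogenic libraries against 46.8, 12.8 and 404 CPM in untreated adipogenic ones. Osteogenic replicate 5 overlapped adipogenic replicate 5, and the log2 fold change of −4.30 ± 1.49 (SE) had an edgeR adjusted p = 0.135. DESeq2 called it with an adjusted p = 0.0161. Dkk2 had a log2 fold change of −2.95 ± 1.93 (SE, edgeR adjusted p = 0.394) and Sfrp4 one of −2.10 ± 0.87 (SE, adjusted p = 0.195). The positive values were 0.58 for Wif1 (edgeR adjusted p = 0.448), 0.41 for Sfrp2 (adjusted p = 0.861) and 0.31 for Dkk3 (adjusted p = 0.697). In the core, Apc at 71 to 77.8 CPM lay below the adipogenic 85.4 to 142 CPM without passing (log2 fold change −0.54 ± 0.19 SE, edgeR adjusted p = 0.132).

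**Figure D3:**
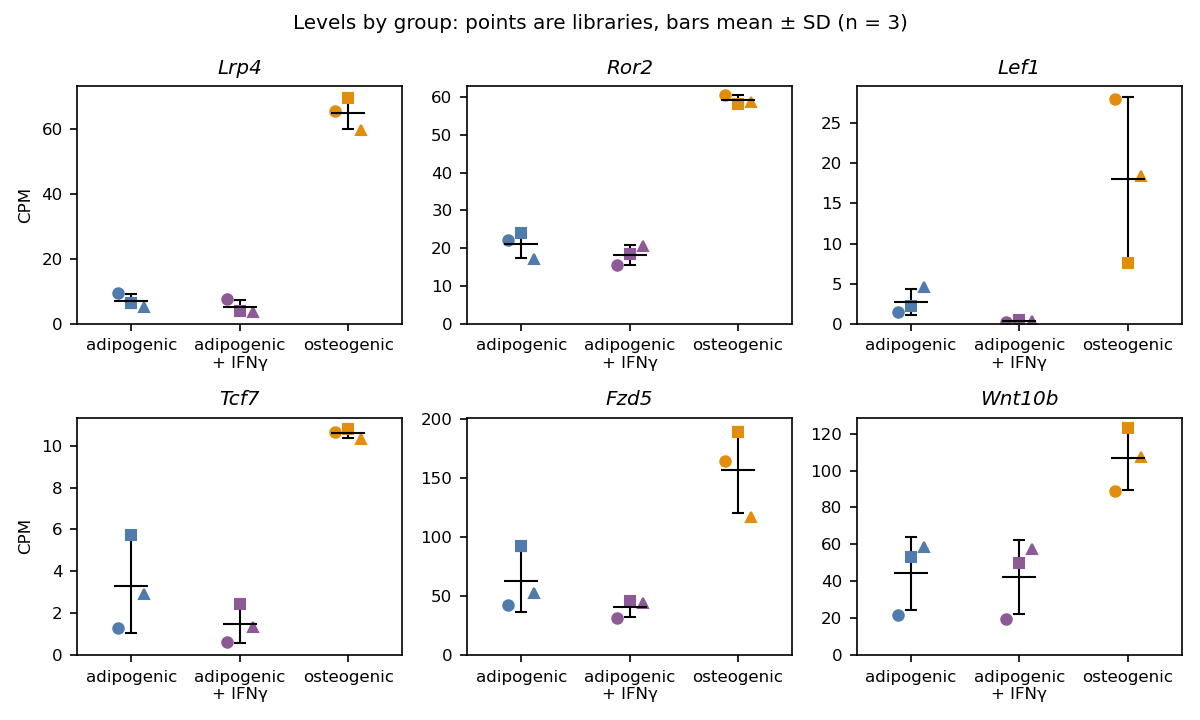
Level in CPM (linear axis) of 6 members in the 3 groups, with 1 point per library (circle, square and triangle for replicates 4, 5 and 6) and the mean ± SD as a bar. Lrp4 and Ror2 stand apart in the osteogenic group, the 3 osteogenic values of Tcf7 lie close together at 10.3 to 10.8 CPM, and the Lef1 values of the 3 groups do not overlap.

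Of the 84 wider pathway genes tested, 3 were higher and 1 lower in the osteogenic cells, against 1.98% and 3.19% of all genes, so that these counts are near the background. Their median log2 fold change was 0.17, beside −0.02 over all genes. Porcn, the enzyme that attaches the lipid needed for Wnt secretion, read 44.6, 32.3 and 40.7 CPM against 15.5, 12 and 7.09 CPM in the untreated adipogenic libraries. It was higher without overlap (log2 fold change 1.76 ± 0.29 SE, edgeR adjusted p = 0.0158), and the call was lost without osteogenic replicate 4 (adjusted p = 0.0658) or 6 (0.0598), in a range that began at 4.43e-07. Porcn was also called lower with IFNγ (log2 fold change −1.06, edgeR adjusted p = 0.023). That call was lost without pairing, with the block of replicate numbers and without replicate 4 or 5. Kremen1, a receptor for Dkk proteins, had a log2 fold change of 1.03 ± 0.16 (SE, edgeR adjusted p = 0.0138), and its call was lost without adipogenic replicate 6 (adjusted p = 0.053, the largest of its alternatives, from 1.52e-06). Dvl3, one of the Dishevelled proteins that pass the signal on, had a log2 fold change of 0.68 ± 0.14 (SE, edgeR adjusted p = 0.0347). Its adjusted p was 0.0848, 0.0574 and 0.125 without adipogenic replicates 4, 5 and 6 and 0.139, 0.0894 and 0.0947 without osteogenic replicates 4, 5 and 6, and 0.0534 with no filter, in a range that began at 0.000553. Frat2, which encodes a GSK3-binding protein, was lower, at 0.877, 0.903 and 0.988 CPM against 6.22, 3.67 and 5.64 CPM (log2 fold change −2.48 ± 0.33 SE, edgeR adjusted p = 0.00825), and it passed in all 13 alternatives.

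Levels of different genes were compared as RPKM, which divides CPM by the exon length in kilobases, computed with the deposited exonic lengths. Wnt10b was the most abundant ligand in all 9 libraries. It made up 45.9% to 76.9% of the summed RPKM of the 13 ligands in untreated adipogenic, 48.2% to 73.7% in IFNγ-treated and 69.5% to 79.3% in osteogenic libraries. The ranges of the untreated and treated adipogenic libraries covered nearly the same span. Wnt5a held 13% to 24.2% of the ligand sum in untreated adipogenic and 3.41% to 7.86% in osteogenic libraries. These shares did not overlap, whereas the CPM of Wnt5a itself did, and the ligand sum was 19.7 to 49.4 RPKM untreated and 54.8 to 66.5 RPKM in osteogenic libraries. Among the Frizzled genes, Fzd7 held 11.7% to 19.4% untreated and 27.4% to 32.5% with IFNγ, again without overlap. These shares are ratios within a role, so a rise in 1 gene lowers the share of the others.

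Among the TCF/LEF factors Tcf7l1 and Tcf7l2 made up most of the RPKM in every library. Tcf7l1 held 51% to 62.6% in untreated adipogenic, 46.4% to 57% in treated and 53.1% to 54.1% in osteogenic libraries. Lef1 held 0.774% to 2.86%, 0.188% to 0.402% and 3.86% to 12.6%, in the same order of groups. Tcf7 held 2.17% to 10.6%, 1.53% to 6.39% and 14.6% to 17%. The summed RPKM of the 4 factors was 18.3 to 21.4 untreated, 10.9 to 14.5 with IFNγ and 22.7 to 25.8 in osteogenic libraries, 3 ranges that did not overlap. Sfrp2 and Dkk3 together made up most of the secreted inhibitors, and their order was not fixed: in adipogenic replicate 4 Dkk3 led with 53.8% untreated and 68.8% treated, while in replicates 5 and 6 Sfrp2 led with 67.5% and 85.2% untreated.

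**Figure D4:**
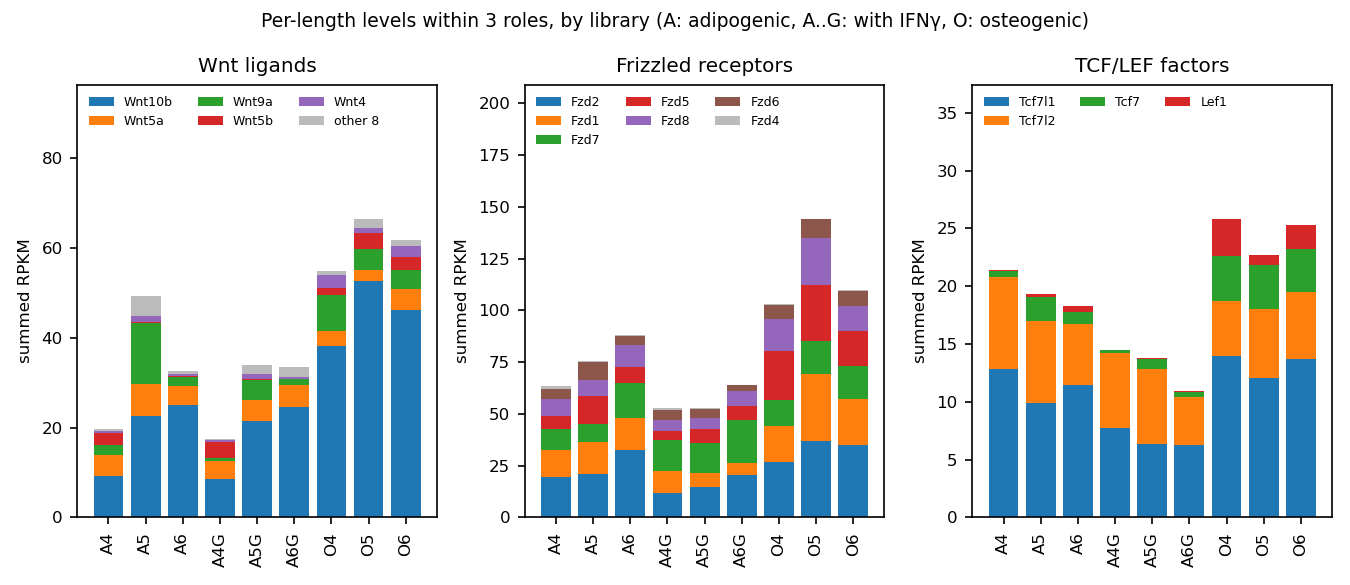
Summed RPKM (y axis) of the ligands, Frizzled receptors and TCF/LEF factors, with 1 stacked bar per library split by gene (A4 to A6 untreated adipogenic, A4G to A6G with IFNγ, O4 to O6 osteogenic). Wnt10b makes up the largest segment of every ligand bar, and the Tcf7 and Lef1 segments are thickest in the osteogenic bars.

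The adipogenic replicates differed widely in some of these genes, and a replicate mostly kept its place after treatment. In the untreated adipogenic libraries 13 of 38 members (34.2%) differed over 4-fold between the highest and the lowest replicate, beside 11.2% of all genes tested. Some of these ratios rest on few counts in the lowest replicate, such as 2 for Wnt2 and 3 for Wnt7b. The replicate that was highest untreated was also highest with IFNγ for 32 of 38 members (84.2%), beside 67.5% of all genes. Wnt7b read 0.563, 16.4 and 0.0749 CPM untreated and 0.532, 2.28 and 0.17 CPM treated, so that replicate 5 stood out in both. Wnt5b, a ligand outside the β-catenin branch, stood out in replicate 4, at 7.21, 0.683 and 0.2 CPM untreated and 9.43, 0.395 and 0.142 CPM treated. Dkk2, an inhibitor that binds Lrp5 and Lrp6, stood out in replicate 6, at 0.253, 0.0854 and 8.26 CPM and 0.296, 0.0846 and 7.27 CPM. The Dkk2 values of replicate 5 and the Wnt7b value of untreated replicate 6 lay at the detection floor. Nkd2 and Sfrp1 were also highest in replicate 6 of both groups, and Axin2 and Wnt9a in replicate 5 of both. No single replicate was highest for all of them. The osteogenic libraries read 4.29, 9.67 and 7.57 CPM for Wnt5b and 0.393, 0.339 and 0.48 CPM for Wnt7b, a narrower spread. For Wnt7b, Wnt5b and Dkk2 neither comparison passed the test (edgeR adjusted p from 0.229 to 0.977).

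**Figure D5:**
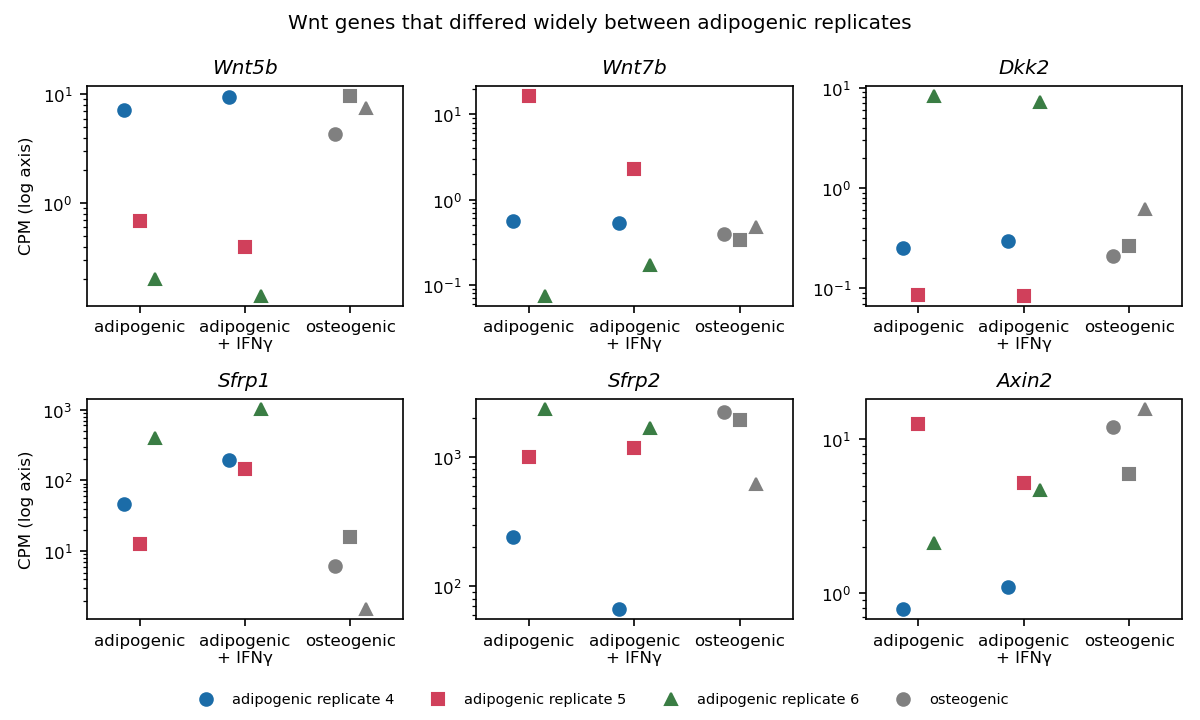
Level in CPM (log axis) of 6 members that differed widely between adipogenic replicates 4 (circle), 5 (square) and 6 (triangle), untreated and with IFNγ, beside the osteogenic libraries in grey with the same symbols. The order of the adipogenic replicates is the same untreated and treated for Wnt5b, Wnt7b and Dkk2.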

How the data were processed

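RNA of 9 libraries was sequenced as 75-base single reads, per the labels' protocols, from a directional poly(A) kit. The authors deposited 1 table of raw counts per gene with exonic lengths. Per the submitters' processing notes, CASAVA 1.8.0, bedtools 2.11 and the genome build mm9 were used. The sources used here name neither the aligner nor the strand setting of the counting, so reads of overlapping or antisense genes may be included.

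From these counts, edgeR 4.0.16 (R 4.3.3) fitted all 9 libraries with TMM scaling, filterByExpr (15098 of 24186 identifiers) and robust quasi-likelihood dispersions, and tests were two-sided. The IFNγ fit had a level for each adipogenic replicate number, because the number pairs these libraries: deviations from the group means of log2 (CPM + 0.5) correlated by 0.791, 0.786 and 0.797 within numbers and by −0.463 to −0.292 between numbers. Such deviations cancel out within a group, so the negative values between numbers are not separate evidence of the pairing. Osteogenic libraries showed no such link (−0.0959 to 0.0616 within numbers), and that fit had group means only. Replicates correlated by 0.955 to 0.980 and, averaged over genes, differed by more than sampling noise. Counts of 3 were taken as the floor. Alternatives were other blocks, DESeq2 1.42.0, limma 3.58.1 (voom), RLE and upper-quartile scaling, no filter, and each replicate left out. The main fits were also run on counts simulated with the spread that they estimate, so that run cannot show whether their model holds for these libraries.

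Members and lists were chosen with earlier results of these data known. By rule, members past a threshold and Axin2, Lef1, Tcf7, Nkd1 and Nkd2 have values in every library, and of the wider list the first 6 by adjusted p in each direction are named. Other members with values in every library, and the promoters printed, were chosen after their values were seen. Gpr177, Dkk4, Tiki1 and Amer1 of the wider list and Emr1 of the markers matched no name. Promoters came from RefSeq (GRCm38.p6) by symbol, and no coordinates were converted.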

Additional observations from a re-analysis of the deposited data

How the results depend on the processing

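With IFNγ, the paired fit with the replicate block called 1 member higher, 7 lower and 1631 genes in all. Without the replicate block it was 0, 2 and 341, and with a replicate block of numbers over all 9 libraries 0 (2 higher at an unadjusted p under 0.05), 3 and 474. The blocked fit of the 6 adipogenic libraries alone called 3 members higher and 9 lower, beside 1266 and 1180 of 14705 genes. DESeq2 with the block called 2 higher and 11 lower, beside 1386 and 1270 of 15098 genes, 2656 in all. Limma-voom called 2 higher and 6 lower, beside 1122 and 713 of 15098 genes. Leaving out 1 pair gave 0 to 1 higher, 0 to 2 lower and 346 to 470 genes; without replicate 6, edgeR called 0 members, with 3 higher and 13 lower at an unadjusted p under 0.05. All 8 called members kept their direction in all 11 alternatives, which adds little, since each had moved the same way in 3 of 3 pairs. So did 20 of the 30 uncalled ones. Of these 30, 7 passed in some alternative.

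In the osteogenic comparison, with 3 members higher, 0 lower and 780 genes, a block of replicate numbers gave 6 higher and 1244 genes, and DESeq2 6 higher, 1 lower and 2226 genes. Leaving out 1 library gave 2 to 3 members higher and 159 to 475 genes. Of 3 called members 2 (Lrp4 and Ror2) passed in all 13 alternatives and all 3 kept their direction. The kept direction adds little, since for all 3 the groups did not overlap. The fits without a pair or library had fewer samples, and the cause of the differences between the fits was not tested. Wnt2, Nkd1, Lef1, Tcf7 and Wif1 rest on few counts, between 23 and 372 in the untreated libraries together. The labels do not say what the shared numbers stand for, and calls that rest on the pairing hold only if they mark the same cells.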
